A study of Cavia porcellus with 24 samples.

Results

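*NFIA* encodes nuclear factor I A, and its locus is described here by the DNA methylation of 243 cytosines on scaffold DS562857.1 of the guinea pig genome (cavPor3), out of 3233055 cytosines listed in either tissue of the series. The members are all listed CpG cytosines of both strands between positions 69797866 and 69852306, an interval of 54441 bp. It runs from 2 kb before the first to 2 kb after the last of the 22 cytosines that carry the name *NFIA* in the published list of cytosines changed with exposure in both tissues. The locus was thus chosen by the measured difference between sGC and control within each tissue, and those differences are given below as a description. The number of cytosines that passed a test of them is given beside that over all cytosines, and nothing is read from it. The tissues were compared with each other as a measure that the choice did not use, although it comes from the same reads. All 22 cytosines of that list were found. They lie on the minus strand, 4 in cluster 1, 9 in cluster 5, 1 in cluster 10 and 8 in cluster 12 as numbered below, and the other 221 members were taken for their position alone.

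The series holds 24 samples from 12 juvenile female guinea pigs of the Hartley strain, 1 from each litter, with hippocampus and whole blood taken from the same animals at postnatal day 14. The mothers of 6 animals received betamethasone, a synthetic glucocorticoid (sGC), at 1 mg/kg, in a course on gestational days 40 and 41 that was repeated on days 50 and 51 and on days 60 and 61. Saline was given in its place to the mothers of the 6 control animals. Reduced representation bisulfite sequencing (RRBS) reads DNA cut at MspI sites after unmethylated cytosines have been converted, so methylation is given as the percentage of reads in which the cytosine was left unconverted. The deposited counts are sums over the 6 animals of a group, which leaves 4 pools with 1 value each, and the spread between animals is not known. A reading below is 1 read at 1 cytosine. Over the locus the hippocampus had 22992 readings with sGC exposure and 22401 in controls, a median of 94 and 93 reads per cytosine. The blood had 23047 and 19162, a median of 94 and 77.

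NFIA belongs to the nuclear factor I family of transcription factors, with NFIB, NFIC and NFIX, which bind DNA as dimers and both activate and repress their targets. In the developing brain it is known for the switch of neural progenitors from making neurons to making astrocytes, and for the growth of the hippocampus and the corpus callosum. In blood formation it takes part in the choice between the erythroid and the granulocyte lineage. Methylation of CpGs in a promoter or enhancer usually goes along with a silent element, whereas the bodies of active genes are often methylated. Exons, introns and promoters of *NFIA* on this scaffold were not analysed here, so the positions stand without them, and the gene name rests on the published list. Both tissues are mixtures of cell types, in which a different share of a cell type and a different methylation within it cannot be told apart.

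Joined over gaps of at most 200 bp, the 243 cytosines at 173 CpGs formed 12 clusters between positions 69799835 and 69850660, of which 9 held at least 5 cytosines and 2 held 1. Of the cytosines, 121 lay on the plus strand and 122 on the minus strand. Of these, 241 are listed in the hippocampus and 235 in blood. The 233 listed in both tissues are the base of all sums below, and of the other 10, 8 are listed only in the hippocampus and 2 only in blood. Summed over the 233 cytosines, 39.9% of 22805 readings were methylated in the sGC hippocampus (95% Wilson interval 39.3 to 40.5) and 32.7% of 22225 in the control hippocampus (32.1 to 33.4). In blood it was 92.4% of 22951 with sGC exposure (92.1 to 92.7) and 85.3% of 19076 in controls (84.8 to 85.8). The blood was thus mostly methylated over the locus and the hippocampus mostly not, and in both tissues the sGC pool lay above the control pool. These intervals cover counting error only, and they are too narrow because neighboring cytosines are read on the same DNA fragments.

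**Figure D1:**
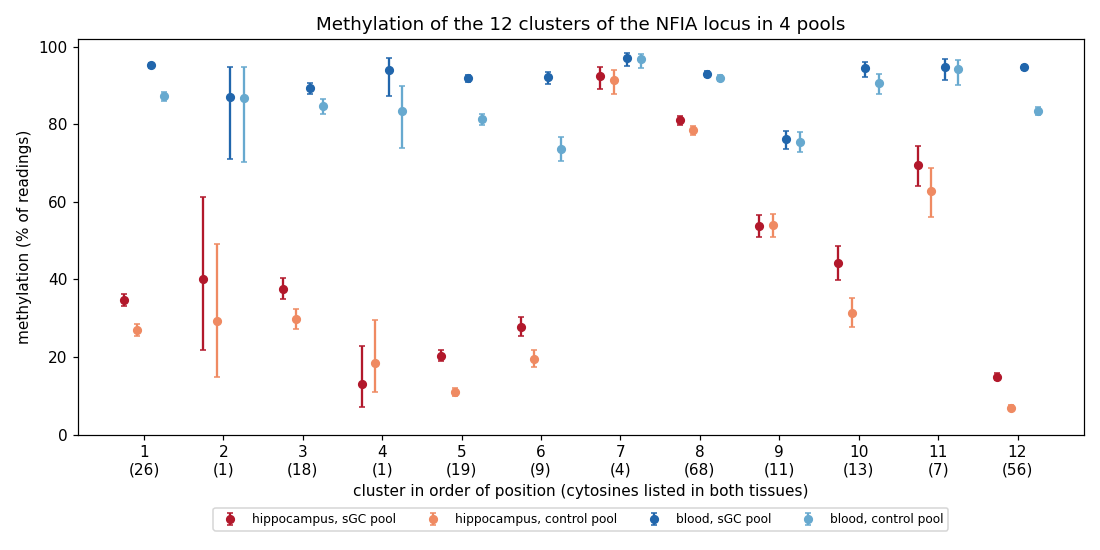
Methylation (percent of readings, vertical axis) of the 12 clusters of the *NFIA* locus in order of position, with the number of cytosines listed in both tissues in parentheses. Points are the pools of 6 animals and bars are 95% Wilson intervals for counting error. The blood pools lie above the hippocampus pools in every cluster, in the control pools by the least in cluster 7 (5.34 percentage points) and by the most in cluster 12 (76.5).

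Blood was compared with hippocampus by a two-sided Fisher's exact test per cytosine with Benjamini-Hochberg adjustment over all 2564116 cytosines listed in both tissues, and a cytosine was called where the adjusted p was below 0.05 and the pools were at least 5 percentage points apart. In the control pools 170 of the 233 cytosines of the locus (73.0%) passed, all with the blood more methylated, where 20.6% of all cytosines tested passed in either direction, 16% with the blood higher and 4.64% with the hippocampus higher. In the sGC pools, which share no animals with the control pools, 171 of 233 (73.4%) passed, again all with the blood higher, against 22.1% of all cytosines tested, 16.7% with the blood higher and 5.4% with the hippocampus higher. No cytosine of the locus was called with the hippocampus higher in either pair of pools. The hippocampus was higher at 21 cytosines in controls and at 20 with sGC exposure, 1 of them in each pair with an unadjusted p below 0.05 in Fisher's exact test. With the 22 listed cytosines left out, 148 of 211 (70.1%) were called in controls and 149 of 211 (70.6%) with sGC exposure. Only cytosines named *NFIA* in the list were left out. The 211 include the plus strand of CpGs whose minus strand is listed, and cytosines near them. They are therefore not a set free of the choice. The median difference, blood less hippocampus, was 52.8 percentage points over the locus and 1.64 over all cytosines in controls, and 53.9 and 1.35 with sGC exposure. In controls the blood was at least 50 percentage points above the hippocampus at 125 cytosines of the locus (53.6%) and at 2.86% of all cytosines. The test takes reads as independent and compares pools, not animals. A gap of this kind was common among loci chosen in the same way. Of the 33 other genes with at least 3 cytosines in the same published list, 31 had more methylation in the control blood than in the control hippocampus, 23 of them by at least 50 percentage points, with a median of 61.9 over the 33 genes against 68.9 for the 22 cytosines of *NFIA*.

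Of the 9 larger clusters, 6 had low methylation in the hippocampus and high methylation in blood. Cluster 12, at positions 69850035 to 69850660, held 58 cytosines and was the least methylated in the hippocampus. The sGC hippocampus had 943 of 6298 readings methylated (15.0%) and the control hippocampus 415 of 6051 (6.86%). The blood had 4788 of 5057 (94.7%) after sGC and 3908 of 4688 (83.4%) after saline. All 56 of its cytosines listed in both tissues passed the comparison of blood with hippocampus in controls and also with sGC exposure. The cytosine with the most reads over the 4 pools, at position 69850469 on the minus strand, had 49 of 252 reads methylated (19.4%, Wilson interval 15.0 to 24.8) in the sGC hippocampus and 13 of 204 (6.37%, 3.76 to 10.6) in the control hippocampus. At the same cytosine the blood had 223 of 235 (94.9%, 91.3 to 97.1) with sGC exposure and 156 of 198 (78.8%, 72.6 to 83.9) in controls. Its difference between blood and hippocampus was 72.4 percentage points in controls (Fisher's exact test, adjusted p = 6.56e-51) and 75.4 with sGC exposure (adjusted p = 3.90e-68).

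Within cluster 12 the pools are described for the first and the last stretch, with a cut that was not planned beforehand. The 8 cytosines of the cluster that chose the locus all lie in the first, none of them beyond 69850306. The difference between the stretches was not tested, and nothing is read from it. From 69850035 to 69850599 the hippocampus had 15.7% with sGC exposure and 6.73% in controls, and the blood 94.7% and 82.7%. There 45 of 47 cytosines were higher with sGC exposure in the hippocampus and 43 were higher in blood. In the last stretch, from 69850626 to 69850660, the hippocampus had 7.71% with sGC exposure and 8.12% in controls, and 8 of the 9 cytosines were lower with sGC exposure. The blood had 94.2% and 91.7% in that stretch, with 5 cytosines higher and 4 lower. The blood of the control pool was least methylated at the start of the cluster, with 45 of 88 reads (51.1%) at position 69850090 on the plus strand, against 62 of 90 (68.9%) with sGC exposure. In the hippocampus that cytosine had 2 of 116 reads methylated in controls (1.72%) and 11 of 121 (9.09%) with sGC exposure. It was the lowest cytosine of the cluster in both blood pools and in the control hippocampus.

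**Figure D2:**
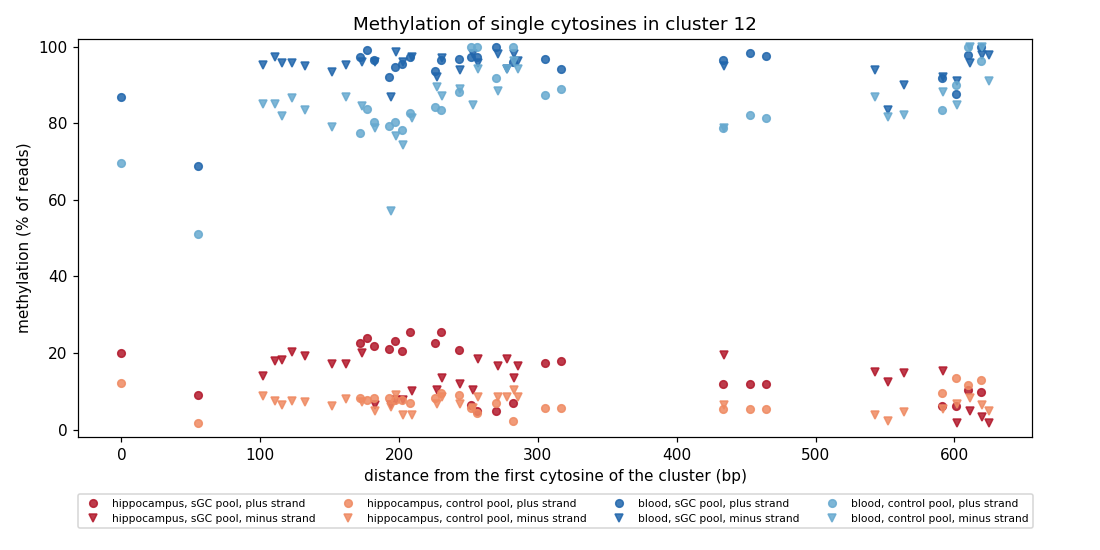
Methylation of the 56 cytosines of cluster 12 listed in both tissues (percent of reads, vertical axis) against the distance from the first cytosine of the cluster in bp. Circles are the plus strand and triangles the minus strand, and colors are the 4 pools. The hippocampus pools stay at 25.4% or below and the blood pools at 51.1% or above, and the gap between the sGC and control pools narrows at the right end.

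Neighboring cytosines on a strand often had nearly the same coverage. In cluster 12, the 9 plus-strand cytosines from 69850207 to 69850265 had between 141 and 142 reads in the sGC hippocampus, of which 29 to 36 were methylated, and between 157 and 158 in the control hippocampus, of which 11 to 15 were methylated. Such a stretch holds far fewer independent molecules than readings. Cytosines next to each other on a strand whose coverage differed by at most 3 reads in each pool were therefore joined into runs, a rule chosen after the values were seen. The 233 cytosines formed 98 runs, the longest with 9 cytosines and 35 with a single cytosine. Counted by runs, the blood was above the hippocampus in 90 of 98 in controls and in 91 with sGC exposure. Over all cytosines listed in both tissues, counted singly and not by runs, it was above at 62.6% and 61.2%. The sGC pool was above the control pool in 70 runs in the hippocampus and in 79 in blood. Over all cytosines listed in a tissue, counted singly, it was above at 56.0% and 53.7%. The locus was chosen by this contrast, so nothing is read from these counts.

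Cluster 5, at 69807752 to 69808008 with 19 cytosines, showed the same arrangement. The hippocampus had 608 of 2997 readings methylated (20.3%) in the sGC pool and 340 of 3097 (11.0%) in the control pool, and the blood 3110 of 3386 (91.8%) and 2347 of 2886 (81.3%). All 19 cytosines passed the comparison of the tissues in both pairs of pools. Its deepest cytosine, at 69807891 on the minus strand, had 37 of 191 reads methylated (19.4%, Wilson interval 14.4 to 25.6) in the sGC hippocampus and 13 of 186 (6.99%, 4.13 to 11.6) in the control hippocampus. In blood the values were 202 of 218 (92.7%, 88.4 to 95.4) and 142 of 183 (77.6%, 71.0 to 83.0). The sGC pool was higher at 18 of the 19 cytosines in the hippocampus and at all 19 in blood. The exception was at 69807752 on the minus strand, with 7 of 81 reads (8.64%) in the sGC hippocampus and 9 of 60 (15.0%) in the control hippocampus. This cytosine and 8 others of the cluster are among the 22 that chose the locus.

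Cluster 1, at 69799835 to 69800223, held 26 cytosines with a more graded methylation in the hippocampus. Single cytosines ranged from 13.7% to 52.8% in the control hippocampus and reached 68.8% in the sGC hippocampus. In the control blood they ranged from 78.4% to 96.9%, and in the sGC blood none was below 87.5%. Summed over the cluster, the hippocampus had 1205 of 3482 readings methylated (34.6%) for sGC and 951 of 3528 (27.0%) for control, and the blood 3378 of 3547 (95.2%) and 2532 of 2902 (87.3%). All 26 cytosines passed the comparison of the tissues in both pairs of pools. The deepest one, at 69800010 on the plus strand, had 39 of 152 reads methylated in the control hippocampus (25.7%, Wilson interval 19.4 to 33.1) and 143 of 158 in the control blood (90.5%, 84.9 to 94.2), which is 64.8 percentage points higher (adjusted p = 6.48e-31 by Fisher's exact test). With sGC exposure it had 61 of 184 (33.2%, 26.8 to 40.2) and 152 of 161 (94.4%, 89.7 to 97.0). The sGC pool was above the control pool at 25 of the 26 cytosines in the hippocampus and at 24 in blood.

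Cluster 6 was short, 79 bp from 69818872 to 69818950 with 9 cytosines, and had the lowest methylation of the control blood among the larger clusters. There 587 of 797 readings (73.7%) were methylated in the control blood and 1173 of 1274 (92.1%) in the sGC blood, 18.4 percentage points more (Newcombe interval 15.1 to 21.9). The hippocampus had 238 of 1222 (19.5%) in controls and 345 of 1240 (27.8%) with exposure. All 9 cytosines were higher with sGC exposure in blood, by 12.1 to 24.1 percentage points, and 8 of 9 in the hippocampus. They rest on 2 runs, 1 on each strand, and the coverage differed between the blood pools, with 69 to 105 reads per cytosine in controls and 139 to 145 with sGC exposure. The part of that depth in the difference was not tested. In the hippocampus the strands differed, with 32.7% against 17.6% on the minus strand for sGC and control, and 23.0% against 21.0% on the plus strand. Its deepest cytosine, at 69818898 on the plus strand, had 32 of 125 reads methylated (25.6%) in the sGC hippocampus and 33 of 136 (24.3%) in the control hippocampus, but 135 of 140 (96.4%) and 80 of 105 (76.2%) in blood. As many reads, 506 over the 4 pools, lay at 69818902 on the same strand, where the hippocampus had 31 of 126 (24.6%) and 36 of 135 (26.7%) and the blood 136 of 140 (97.1%) and 80 of 105 (76.2%). All 9 cytosines passed the comparison of the tissues in both pairs of pools.

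Cluster 3, at 69805161 to 69805309 with 21 cytosines, 18 of them listed in both tissues, was mixed. Its hippocampus pools had 476 of 1265 readings methylated (37.6%, sGC) and 384 of 1292 (29.7%, control), and its blood pools 1538 of 1721 (89.4%) and 1098 of 1297 (84.7%). The cytosines with the most reads resembled the clusters above: at 69805161 on the plus strand the control hippocampus had 27 of 128 reads methylated (21.1%, Wilson interval 14.9 to 29.0) and the control blood 77 of 99 (77.8%, 68.6 to 84.8). The cytosines with few reads were not alike. At 69805231 on the minus strand all 10 reads of the control hippocampus and 16 of 17 of the sGC hippocampus were methylated, and at 69805226 on the plus strand the values were 28 of 31 and 21 of 29. At 69805279 on the minus strand, the hippocampus had 38.9% of 18 reads in controls and 39.3% of 28 with exposure, against 88.6% and 87.8% in blood. The difference between sGC and control in the hippocampus ran from -25.0 to 22.7 percentage points over the cluster, and 13 of 18 cytosines were higher with sGC exposure in the hippocampus and 12 in blood. The comparison of the tissues called 14 of 18 in controls and 16 with sGC exposure.

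Cluster 10, at 69840068 to 69840525 with 13 cytosines, had the largest difference between sGC and control in the hippocampus of the larger clusters, and it had few reads, 23 to 63 per cytosine and pool. There the sGC hippocampus had 223 of 504 readings methylated (44.2%) and the control hippocampus 179 of 572 (31.3%), so that the pools lay 13.0 percentage points apart (Newcombe interval 7.16 to 18.7). The blood had 546 of 578 (94.5%) and 474 of 523 (90.6%). Most of the difference lay on 3 plus-strand cytosines of a single run, from 69840068 to 69840109, with 43.3% in the sGC hippocampus and 8.98% in the control hippocampus. At 69840068 there were 21 of 47 reads methylated (44.7%, Wilson interval 31.4 to 58.8) with sGC exposure and 4 of 56 (7.14%, 2.81 to 17.0) in controls, while the blood had 63 of 63 and 37 of 42 (88.1%). Farther along the cluster, in parts not planned beforehand, the values were mixed. On the minus strand from 69840240 to 69840292 the sGC pool was higher in the hippocampus, 56.9% against 43.3%, and lower in blood, 91.9% against 95.9%, and from 69840483 to 69840525 it was lower in the hippocampus, 36.7% against 41.6%, and higher in blood, 95.3% against 88.2%. The intervals of both lower values include 0 (-8.88 to 0.592 percentage points for the blood and -15.2 to 5.53 for the hippocampus). The comparison of the tissues called 13 of 13 cytosines in controls and 12 with sGC exposure.

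The clusters in the middle of the locus were methylated in both tissues. Cluster 8, at 69834557 to 69835783, was the longest with 71 cytosines, 68 of them listed in both tissues. The hippocampus had 4088 of 5046 readings methylated (81.0%) in the sGC pool and 3757 of 4788 (78.5%) in the control pool, and the blood 4973 of 5351 (92.9%) and 3824 of 4159 (91.9%). The difference between sGC and control was 2.55 percentage points in the hippocampus (Newcombe interval 0.959 to 4.14) and 0.991 in blood (-0.0758 to 2.08). The sGC pool was higher at 38 cytosines in the hippocampus and at 39 in blood. The small cluster 7 before it, with 4 cytosines from 69834008 to 69834177, had 92.4% and 91.3% in the hippocampus and 97.1% and 96.7% in blood.

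Cluster 8 changed along its length in the hippocampus. The cut between its parts below was not planned beforehand, and the difference between them was not tested. Its first 20 cytosines, up to position 69834810, had 62.7% in the sGC hippocampus and 56.8% in the control hippocampus, against 94.8% and 91.9% in blood, and 16 of the 20 were called between the tissues in controls and 17 with sGC exposure. From 69834820 on, the 48 cytosines had 89.8% and 89.6% in the hippocampus and 92.2% and 91.9% in blood, and 3 and 1 of them were called. In this second part the difference between sGC and control was 0.217 percentage points in the hippocampus (Newcombe interval -1.25 to 1.69) and 0.255 in blood (-1.001 to 1.53). A cytosine at 69835063 on the plus strand was an exception in level, with 43 of 64 reads methylated (67.2%) for sGC and 46 of 70 (65.7%) for control in the hippocampus, and 50 of 94 (53.2%) and 43 of 79 (54.4%) in blood. The deepest cytosine of the cluster, at 69834859 on the plus strand was lower with sGC exposure, with 114 of 148 reads methylated (77.0%, Wilson interval 69.6 to 83.1) in the sGC hippocampus and 117 of 124 (94.4%, 88.8 to 97.2) in controls. It was also lower in the sGC blood, 132 of 159 (83.0%, 76.4 to 88.1), than in the control blood, 134 of 143 (93.7%, 88.5 to 96.7). The cytosine 9 bp farther on the same strand had 133 of 147 (90.5%) and 108 of 124 (87.1%) in the hippocampus and 152 of 158 (96.2%) and 138 of 142 (97.2%) in blood.

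**Figure D3:**
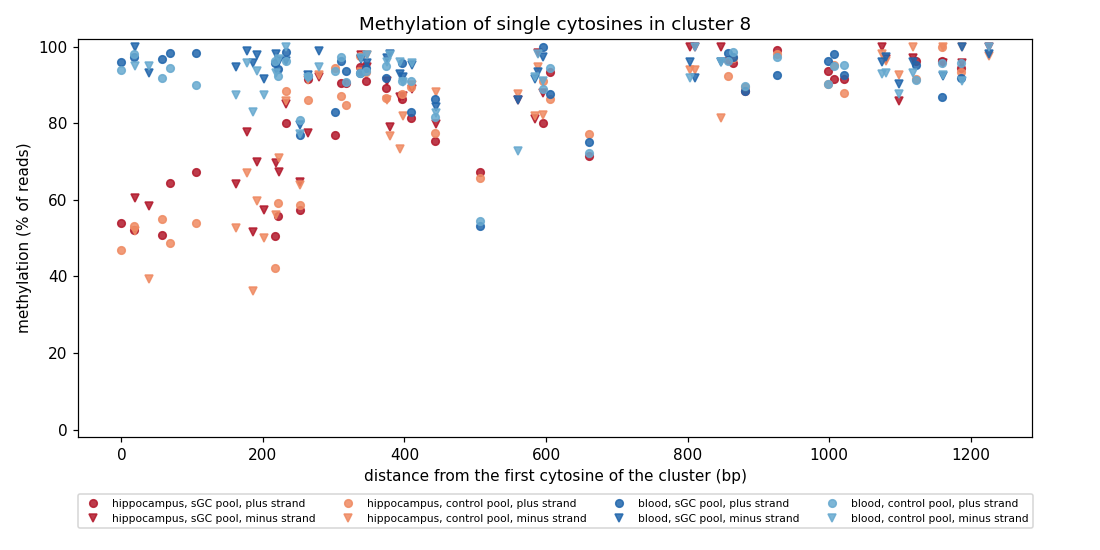
Methylation of the 68 cytosines of cluster 8 listed in both tissues (percent of reads, vertical axis) against the distance from the first cytosine of the cluster in bp, with circles for the plus strand, triangles for the minus strand and colors for the 4 pools. At the left end the hippocampus pools (56.8% in controls over the first 20 cytosines) lie below the blood pools (91.9% in controls), and farther right the 4 pools overlap.

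Clusters 9 and 11 lay between these states. In cluster 9, at 69837486 to 69837819 with 11 cytosines, the hippocampus had 664 of 1236 readings methylated (53.7%) with exposure and 566 of 1049 (54.0%) without, and the blood 955 of 1255 (76.1%) and 839 of 1112 (75.4%). It was the least methylated of the larger clusters in the sGC blood, and its cytosines were spread widely in every pool, from 17.3% to 95.4% in the control hippocampus and from 35.8% to 94.8% in the control blood. The cytosine at 69837713 on the plus strand was low in both tissues, with 18 of 104 reads methylated (17.3%) in the control hippocampus and 34 of 95 (35.8%) in the control blood. The one at 69837486 on the plus strand was high in both, with 103 of 108 (95.4%) and 117 of 125 (93.6%). Its deepest cytosine, at 69837624 on the minus strand, had 138 of 177 (78.0%) and 113 of 154 (73.4%) in the hippocampus and 181 of 200 (90.5%) and 201 of 212 (94.8%) in blood for sGC and control. Cluster 11, at 69846285 to 69846381, had 69.5% and 62.7% in the hippocampus and 94.8% and 94.2% in blood over 7 cytosines with 12 to 76 reads. At its deepest, 69846314 on the minus strand, 48 of 76 reads (63.2%) and 29 of 45 (64.4%) were methylated in the hippocampus and 56 of 56 and 36 of 38 (94.7%) in blood. At 69846320 on the same strand, with the same 215 reads over the 4 pools, it was 58 of 76 (76.3%) and 31 of 45 (68.9%), and 54 of 56 (96.4%) and 38 of 38. Between the tissues, 8 of 11 cytosines of cluster 9 were called in each pair of pools, 7 of them in both, and 4 of 7 of cluster 11 were called in both pairs.

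The 2 clusters of a single cytosine lay beside larger ones. At 69800538 on the minus strand (cluster 2) the hippocampus had 8 of 20 and 7 of 24 reads methylated for sGC and control, and the blood 27 of 31 and 26 of 30. At 69807477 on the plus strand (cluster 4) the hippocampus had 9 of 69 (13.0%) and 12 of 65 (18.5%), and the blood 92 of 98 (93.9%) and 70 of 84 (83.3%). Both were called between the tissues in both pairs of pools.

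Over the whole locus, the sGC pool was higher than the control pool at 172 of the 233 cytosines in the hippocampus and at 174 in blood, and lower at 61 and 57. Over all cytosines listed in a tissue, 56.0% were higher with sGC exposure in the hippocampus and 53.7% in blood, with a median difference of 0.621 and 0.435 percentage points, against 5.71 and 5.32 over the 241 and 235 cytosines of the locus. At 135 cytosines it was higher in both tissues, at 22 lower in both, at 35 higher only in the hippocampus and at 39 higher only in blood, with the remaining 2 equal in a tissue. The summed difference was 7.17 percentage points in the hippocampus (Newcombe interval 6.28 to 8.05) and 7.07 in blood (6.47 to 7.68). Taken one by one, 4 of 241 cytosines in the hippocampus passed the adjusted Fisher's exact test, 3 of them higher with sGC exposure, where 0.112% of all cytosines passed (0.0729% with sGC higher and 0.0391% with the control higher). In blood 18 of 235 passed, all higher with sGC exposure, where 0.317% of all cytosines passed (0.192% with sGC higher and 0.125% with the control higher). In a chi-square test with its statistic divided by its inflation factor, 0 cytosines of the locus passed in either tissue. Of all cytosines, 0.0202% passed that test in the hippocampus and 0.0491% in blood. The locus was chosen for these differences. The 22 cytosines that chose it had a median difference of 10.4 percentage points in the hippocampus and 11.9 in blood. The other 211 had 4.74 and 4.69, with 151 and 153 of them higher with sGC exposure. They include the plus strand of listed CpGs and cytosines near them, so they are not free of the choice either.

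**Figure D4:**
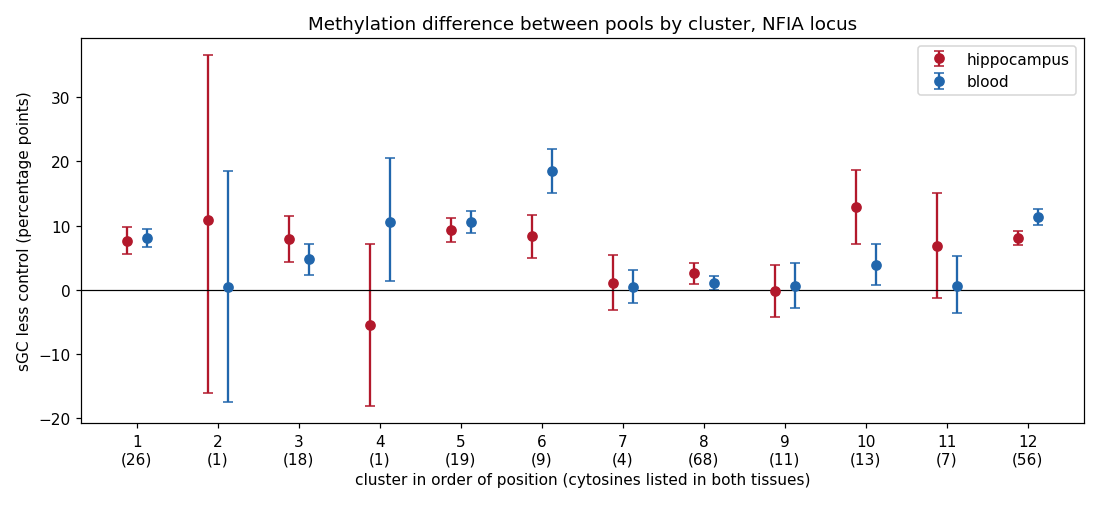
Difference in methylation, sGC pool less control pool, in percentage points (vertical axis) for the 12 clusters in order of position, with the number of cytosines listed in both tissues in parentheses. Points are differences of the summed readings and bars are 95% Newcombe intervals for counting error. In the hippocampus 10 clusters lie above 0 and in blood all 12, with the intervals above 0 in 7 clusters in each tissue.

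Among the 9 larger clusters, the difference between sGC and control was larger in those with little methylation in the hippocampus. The choice of the locus fixed a part of this, since the 22 cytosines that chose it all lie in clusters 1, 5, 10 and 12. It is given as a description, and nothing is read from it. The 6 larger clusters with under 32% in the control hippocampus (clusters 1, 3, 5, 6, 10 and 12) differed by 7.65 to 13.0 percentage points in the hippocampus and by 3.83 to 18.4 in blood. The larger clusters with more than 50% there (clusters 8, 9 and 11) differed by -0.234 to 6.82 in the hippocampus and by 0.601 to 0.991 in blood. This contrast leaves out the single cytosines and the parts of clusters. Cluster 4, with 18.5% in the control hippocampus, differed by -5.42 there and by 10.5 in blood. Cluster 2, with 29.2%, differed by 10.8 and 0.430. The last stretch of cluster 12, with 8.12%, differed by -0.412 and 2.55. Cytosines of the same levels elsewhere were described beside this, with classes chosen after the values were seen. Outside the locus, 56305 cytosines had a mean of the pools under 40% in the hippocampus and over 80% in blood. Their median difference, sGC less control, was 6.40 percentage points in the hippocampus (quartiles 0.794 and 11.7) and 6.21 in blood (1.53 and 10.5), and 77.6% and 81.2% of them were higher with sGC exposure. The 117 such cytosines of the locus had medians of 8.74 (3.55 and 12.1) and 9.62 (6.39 and 14.004). Where both tissues were over 80%, the medians were 0.556 and 0.371 at 1095134 cytosines outside and 0.599 and 0.468 at 53 cytosines of the locus. Higher methylation with sGC exposure at cytosines that were low in the hippocampus and high in blood was thus seen across the genome. The 117 cytosines include some that chose the locus, so nothing is read from their higher medians.

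Among 157093 clusters of at least 5 cytosines in the whole series, the median difference between blood and hippocampus in controls was 2.28 percentage points, and 95% of clusters lay below 35.9. Cluster 12 (76.5) stood above 99.96% of them, cluster 5 (70.3) above 99.9%, and clusters 1, 10, 3 and 6 above 99.3%, 99.3%, 98.8% and 98.7%. With sGC exposure cluster 12 (79.7) stood above 99.98%. Clusters 8, 9 and 11 stood above 82.1%, 89.1% and 93.6% in controls. In sGC less control, the 9 clusters stood above 27.2% (cluster 9) to 99.3% (cluster 10) of all clusters in the hippocampus and above 53.2% (cluster 11) to 99.9% (cluster 6) in blood, with cluster 12 above 96.1% and 99.3%. These last ranks rest on the values that chose the locus, and nothing is read from them.

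The strands of a CpG, which are sequenced as separate fragments, gave another view of the error. At the 64 CpGs of the locus listed on both strands in both tissues, the median absolute gap between the strands was 7.59 percentage points for sGC and 3.97 for control in the hippocampus, and 2.13 and 3.80 in blood. Over all 506034 such CpGs the medians were 2.76, 2.84, 2.27 and 2.72 in the same order. The CpGs of the locus and all CpGs were not matched in methylation level or depth. The gap was under 10 percentage points at 60.9% of the CpGs of the locus in the sGC hippocampus and at 85.9% in the control hippocampus, against 88.8% and 88.4% of all CpGs. In blood it was under 10 at 96.9% and 92.2% of the CpGs of the locus, against 93.2% and 90.4% of all CpGs. In cluster 12 the plus strand had 17.1% and the minus strand 13.1% in the sGC hippocampus, and 7.33% and 6.39% in the control hippocampus. The median gap at the locus was thus largest in the sGC hippocampus. The largest single gap, 75.2 percentage points, was in the control hippocampus, against 46.6 in the sGC hippocampus. Both were at the same CpG of cluster 3, with few reads on its plus strand. The plus strand, at 69805226, had 28 of 31 reads methylated in controls and 21 of 29 with sGC exposure. The minus strand, at 69805227, had 15 of 99 and 23 of 89. The gaps were not tested.

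On the flanks, the nearest stretch before the interval, at 69796127 to 69796244 with 6 cytosines, had 55.0% and 46.6% in the hippocampus for sGC and control, and 94.9% and 90.8% in blood. The one before that, at 69795411 to 69795703 with 7 cytosines, had 36.9% and 51.3% in the hippocampus, so that there the sGC pool was the lower one, and 90.4% and 89.6% in blood. The nearest after it, at 69855280 to 69855324 with 4 cytosines, had 94.96% and 94.3% in the hippocampus and 95.5% and 94.4% in blood. Just inside, cluster 1 and cluster 12 had 27.0% and 6.86% in the control hippocampus. In the 150 kb before the interval there were 26 stretches of at least 5 cytosines listed in either tissue. After it only 20 kb were examined, with 0 such stretches, so the counts below cover only the side before the interval. The sums of those at 69670247 to 69670477 and at 69720681 to 69720976 rest on only 4 and 3 cytosines listed in both. The control blood was at least 50 percentage points above the control hippocampus in 3 of the 26 stretches and in 6 of the 9 larger clusters of the locus. The hippocampus was higher in 10 of the 26, among them that at 69720681, and in none of the 9. The median difference between the tissues in controls was 8.05 percentage points for the 26 stretches against 54.9 for the clusters of the locus. The 3 stretches include that at 69658604 to 69658717, where some cytosines carry the name *NFIA* in the published list for blood. The interval was bounded by cytosines of the list changed in both tissues, and the stretches were not chosen by it. Of the 33 other genes of that list, 23 also had a gap of at least 50 percentage points in controls. The part of the choice in the contrast with the stretches was not tested, and nothing is read from it.

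**Figure D5:**
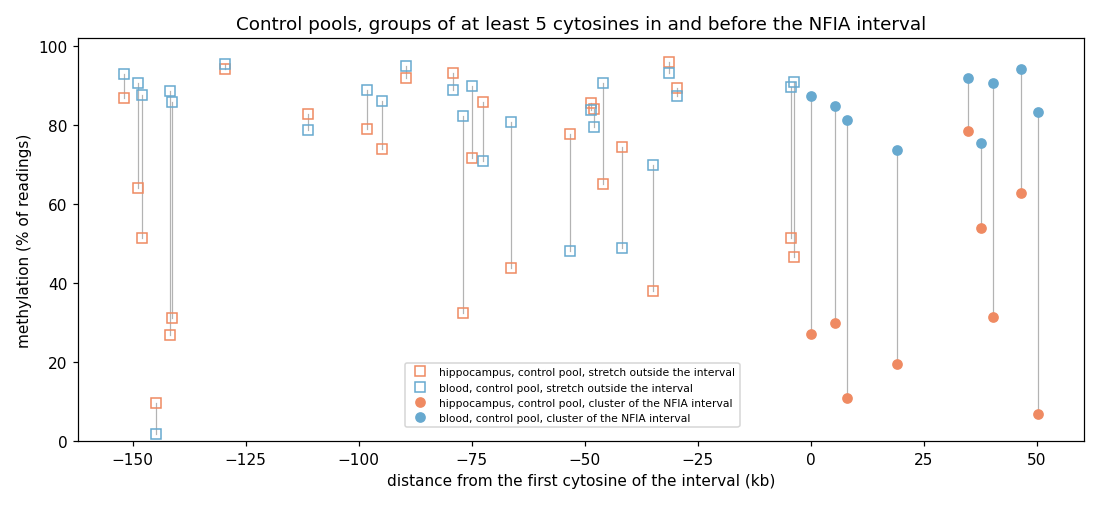
Methylation in the control pools (percent of readings, vertical axis) of groups of at least 5 cytosines against the distance from the first cytosine of the interval in kb. Filled circles are the 9 larger clusters of the *NFIA* interval, open squares the 26 stretches before it, and grey lines join the hippocampus and the blood of a group. The blood lies at least 50 percentage points above the hippocampus in 6 of the 9 clusters and in 3 of the 26 stretches. The interval was bounded by cytosines of the published list, and the stretches were not chosen by it.

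The genes whose pattern was most like that of *NFIA* were taken from the published list of cytosines changed in both tissues, in which 33 other genes had at least 3 cytosines. Likeness was the Euclidean distance between the mean methylation of a gene's listed cytosines in the 4 pools and that of the 22 of *NFIA*, which were 23.4% and 13.3% in the hippocampus (sGC and control) and 93.2% and 82.3% in blood. The nearest was *IRF2BPL*, at a distance of 4.78 percentage points, with 26.3% and 15.9% in the hippocampus and 94.1% and 79.6% in blood over 7 cytosines. *NAV1*, a neuronal microtubule-binding protein, was at 6.17, with 18.6%, 10.6%, 96.1% and 82.4% over 14 cytosines. *RAPGEF3*, an exchange factor for Rap proteins that is activated by cyclic AMP, was at 7.72, with 28.9%, 17.5%, 95.9% and 80.3% over 6 cytosines. *MAN1C1*, a mannosidase of the Golgi, was at 7.74, with 28.2%, 10.7%, 96.2% and 86.8% over 3 cytosines. All these genes were low in the hippocampus and high in blood, with the sGC pool above the control pool in both, which their choice as the nearest to *NFIA* fixes. Of the 33 other genes, 30 were higher with sGC exposure in the hippocampus and 30 in blood.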

How the data were processed

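Hippocampus and whole blood of 12 female guinea pigs (24 samples, 4 groups of 6) were examined by RRBS. Trim Galore and a NuGEN script served the authors for trimming, Bismark 0.16.0 for alignment and SAMtools 1.7 for sorting, per the submitters' processing notes. Methylation was then analysed in MethPipe, where batch was a covariate, with annotation on cavPor3. They deposited 1 table per tissue with methylated and total read counts per cytosine, which are group sums over animals and not normalized, each with at least 10 reads per group. The FDR (a q-value) that the authors deposited holds their own comparison and was not used.

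Percentages with 95% Wilson intervals, differences with Newcombe intervals, and two-sided Fisher's exact tests with Benjamini-Hochberg adjustment over the whole table were computed here, and the test was checked on simulated data. The simulated reads were independent, so the check cannot show how the test behaves with spread between animals or shared DNA fragments. Calls needed an adjusted p below 0.05 and 5 percentage points. The members, lists and rules were chosen with earlier results of these data known. The genes named were *NFIA* and the 4 genes nearest to it over the 4 pools, and within the locus the deepest cytosine of each cluster of at least 5 cytosines (the first by position where cytosines tied, in 5 clusters), with others chosen after their values were seen. RefSeq gene names were of another assembly, so no annotation, motif or sequence was used. Alternatives changed the coverage, strands, difference, test, weighting and interval. Python 3.11.15 was used with matplotlib 3.10.9, numba 0.67.0, scipy 1.17.1, numpy 2.4.6 and pandas 2.3.3.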

Additional observations from a re-analysis of the deposited data

Results flagged for a closer look

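In cluster 4, a single cytosine, the sGC pool was lower than the control pool in the hippocampus (-5.42 percentage points, Newcombe interval -18.0 to 7.07) and higher in blood (10.5, 1.30 to 20.5). In cluster 9 the difference was -0.234 percentage points in the hippocampus (-4.33 to 3.86) and 0.646 in blood (-2.80 to 4.11). These clusters are given because the tissues had opposite directions, and the difference between the tissues was not tested. Both intervals of the hippocampus and that of cluster 9 in blood include 0.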

How the results depend on the processing

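Leaving out an animal could not be done, since the counts are sums over 6 animals. No paired analysis was possible because the columns carry no animal numbers. The calls between blood and hippocampus stayed within 1.5 times of the values reported. In controls they ran from 124 (strands of a CpG summed, 169 CpGs, with 22.2% of all CpGs called) to 167 (minimum difference of 20 percentage points, with 14.8% of all cytosines called). With sGC exposure they ran from 125 (23.4%) to 166 (14.5%) in the same settings. The share of all cytosines called moved more. In a chi-square test with its statistic divided by its inflation factor it was 7.32% in controls and 8.38% with sGC exposure, beside 133 and 142 calls at the locus. For sGC against control, 4 calls were reported in the hippocampus and 18 in blood (0.112% and 0.317% of all cytosines). Summing the strands gave 8 and 28 (0.195% and 0.551% of all CpGs). A minimum difference of 20 percentage points gave 1 and 5 (0.0768% and 0.115% of all cytosines). A chi-square test with its statistic divided by its inflation factor (1.76 and 1.73) gave 0 and 0 (0.0202% and 0.0491%). That setting changed the test and divided its statistic together, so the fall is not put down to either. With equal weight for each cytosine, sGC less control was 5.41 (hippocampus) and 5.75 percentage points (blood), and that of blood less hippocampus 45.7 in controls and 46.0 with sGC exposure. Without cluster 8, which has the most cytosines, the difference of sGC less control in blood was 8.76, and that of blood less hippocampus was 63.3 and 64.0. On the plus strand alone, blood less hippocampus was 51.1 in both pairs of pools, and on the minus strand 54.1 and 54.0. Gaps of at most 100 bp gave 19 clusters. No alternative turned a direction. Reads limit single cytosines: the fewest in a pool were 10.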

Other observations

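In the 150 kb before the interval, a few stretches had an arrangement that the locus did not show. At 69654949 to 69655053, 7 cytosines were low in both tissues, with 9.41% and 9.71% in the hippocampus for sGC and control, and 1.04% and 1.74% in blood. In 3 stretches of at least 5 cytosines the hippocampus was more methylated than the blood by over 10 percentage points in controls. At 69727385 to 69728093 (28 cytosines) it was 85.8% in the control hippocampus and 70.9% in the control blood, at 69746651 to 69746829 (10 cytosines) 77.8% and 48.0%, and at 69757997 to 69758063 (7 cytosines) 74.3% and 48.9%. The last of these had 31.4% in the sGC blood, 17.5 percentage points below the control blood, on 140 and 139 readings.

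Between 69658604 and 69658717, a stretch of 12 cytosines, some of which carry the name *NFIA* in the published list for blood, the hippocampus had 36.1% with sGC exposure and 31.2% in controls and the blood 94.7% and 85.8%. The stretch just before it, at 69658095 to 69658341 with 9 cytosines, had 23.7% and 26.7% in the hippocampus and 91.3% and 88.7% in blood. There sGC less control in the hippocampus was -3.04 percentage points, with an interval (-7.77 to 1.73) that includes 0. These stretches were chosen after their values were seen and were not tested.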
